A study of Mus musculus with 71 samples.

Results

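Ubiquitin-specific proteases, the largest family of deubiquitinating enzymes, were followed through a SLAM-seq chase in mouse embryonic stem cells (mESCs) treated with the Mettl3 inhibitor STM2457 or with DMSO. Their genes were taken by name, as every gene whose symbol is Usp followed by a number and, where present, lower-case letters, apart from Usp48 and the Usp17l genes. Usp48 was left out because earlier results of these data had singled it out for its fall with STM2457, so all counts below are for the family without it. The rule gave 48 of the 21527 genes in the tables, all of which were located in the GENCODE M21 annotation of GRCm38. One of them, Usp6nl, carries the name but encodes a GTPase-activating protein for Rab GTPases and no protease. Its change in level is given apart, and it is included in the counts over the family below.

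In SLAM-seq, cells take up the uridine analogue 4-thiouridine (s4U), and incorporated s4U is read as T-to-C conversions after the RNA has been alkylated with iodoacetamide. The cells, labelled as male mESCs and grown in 2i/LIF medium, which holds them in the naive pluripotent state, received 100 µM s4U for 24 h, followed by an excess of uridine. STM2457 at 20 µM, which blocks the methyltransferase that makes most m6A in mRNA, or its solvent DMSO was present from 6 h before the chase and through it. Libraries were made from 8 chase times (0, 1, 1.5, 2.3, 3.5, 5.3, 8 and 12 h), with 4 replicates per treatment and time, except 3 for STM2457 at 3.5 h, and from 4 unlabelled cultures per treatment, which gives 71 libraries. How long the unlabelled cultures had been treated is not given in the sources used here. Mettl3 was blocked with the inhibitor and not by a mutation, so each treatment comparison is between inhibitor and solvent. In such bulk libraries, fewer cells of a type and less RNA per cell cannot be told apart.

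Ubiquitin is attached to proteins by E1, E2 and E3 enzymes and is removed again by deubiquitinases, which spare substrates from the proteasome, end signals and recycle free ubiquitin. Most members of the Usp family are cysteine proteases built on a common catalytic fold, and many are active only with a partner protein, such as the WD-repeat protein Wdr48 for Usp1, Usp12 and Usp46. In embryonic stem cells, members of the family act on histones, on DNA repair proteins and on factors of pluripotency and the cell cycle.

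Each control library held 4539726 to 7368244 counted reads and each STM2457 library 4704543 to 6804970. The reads were counted on windows at the 3′ ends of transcripts. The Usp genes together took 1904 to 2662 RPM (reads scaled to the depth of the library) in the control libraries, with a median of 2248. The sum in RPM was 2152 ± 41.9 at 0 h and 2579 ± 102 at 12 h of chase in the control, and 2133 ± 64.8 and 2400 ± 95.7 with STM2457 (mean ± SD, n = 4 each).

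A filter on low counts kept 43 of the 48 genes and 12659 of all genes. The 5 genes below it were Usp9y with 0 reads, Usp18 with 17, Usp29 with 38, Usp26 with 69 and Usp50 with 77 reads over all 71 libraries. Usp18 removes the ubiquitin-like modifier ISG15, an interferon-induced tag, while Usp26 and Usp29 are known mainly from the germ line and from imprinting. Usp50 lies on the strand opposite to Usp8 on chromosome 2, and their gene bodies overlap. Although the cells are labelled as male, other Y-linked genes that are widely expressed were also at or near 0: Ddx3y, Kdm5d and Uty had no read in any library, and Eif2s3y did not exceed 0.576 RPM. Xist, transcribed from an inactive X chromosome, did not exceed 0.789 RPM.

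The naive pluripotency markers were present in every library. Summed over the 7 markers in the tables, they ranged from 1010 to 1810 CPM (counts scaled to the normalised size of the library) in the control and from 1320 to 1860 with STM2457, with Pou5f1 the most abundant in both. Fibroblast markers summed to at most 18.6 CPM, of which Thy1 was the largest part, and 2-cell markers to at most 2.28 CPM, with Zscan4f at 0. Markers of primed epiblast had a median sum of 244 CPM in the control and 183 with STM2457, nearly all of it Dnmt3b, which fell in the averaged comparison below (log2 fold change −0.515), while the log2 fold changes of Pou3f1, Fgf5 and Otx2 were 0.54, 0.01 and −0.01 and not called. Of the 3 mesoderm markers, T fell (−0.44) and Eomes (0.29) and Mixl1 (0.03) were not called. Of the neural markers, Nes fell (−0.34) and Sox1 and Pax6 were not tested. The part of these markers in the changes of Usp genes was not tested.

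Which Usp genes changed in level upon Mettl3 inhibition was asked with edgeR's quasi-likelihood test on the read counts, averaged over the 8 chase times with equal weight and called at an adjusted p-value (Benjamini-Hochberg over all genes) under 0.01. In this comparison 5 of the 43 tested Usp genes were called, or 11.6%, against 26.5% of all tested genes. Usp54, Usp46, Usp42 and Usp1 rose (4 genes, where 13.9% of all genes did) and Usp20 fell (1 gene, where 12.6% of all genes did). Of the 43 genes, 20 had positive and 23 negative log2 fold changes, and the median was −0.03, beside −0.01 for all genes. Of the 5 called changes, that of Usp54 was the largest, at 1.34-fold.

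Mettl3 methylates A in a consensus whose core letters are GGAC. To show where these letters lie in the 5 called transcripts, a GGAC of each is printed from the GENCODE M21 sequence (build GRCm38). The transcript with the longest coding sequence was used. Printed is the GGAC nearest to the end of the stop codon among those whose printed stretch is not broken by an intron. The stretch runs 5′ to 3′ on the strand of the gene, with 10 bases on either side and GGAC in capitals.
Usp54 (chr14:20549993-20550016, minus strand, coding sequence): acccctcccaGGACagacacagga
Usp46 (chr5:74003186-74003209, minus strand, coding sequence): ctgtgaacctGGACcgcatgtatg
Usp42 (chr5:143711214-143711237, minus strand, 3′ UTR): agtttaccatGGACaactgtttct
Usp1 (chr4:98934831-98934854, plus strand, 3′ UTR): aaacagacctGGACagatgttggt
Usp20 (chr2:31021347-31021370, plus strand, coding sequence): gaggagacctGGACctatctgagc

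Only in Usp1, among these 5, did GGAC lie within 50 bases of the end of the stop codon. Such a window of 100 bases, read on the transcript strand, held GGAC in 14 of the 45 Usp transcripts long enough to be scored (31.1%) and in 37.2% of 20081 coding transcripts. Over the whole transcript, the Usp genes had a median of 4.09 GGAC per kb, from 1.27 in Usp14 to 7.47 in Usp5, and all coding transcripts had a median of 4.00 per kb. In the 5 called transcripts the density was 3.19 per kb in Usp54, 2.19 in Usp46, 5.44 in Usp42, 5.59 in Usp1 and 5.31 in Usp20. A match of these letters is a description of the sequence and no sign of a methylated site. Methylation was not measured here.

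Usp1, with its activator Wdr48, removes ubiquitin from the DNA repair proteins Fancd2 and PCNA. Its level lay between 95 and 223 CPM in the 32 labelled control libraries, with a median of 134 CPM, and between 112 and 231 CPM with STM2457 (median 155 CPM, 31 libraries). The treatments overlapped widely, yet the STM2457 mean was above the control mean at 7 of 8 chase times, with 1.5 h as the exception. The averaged log2 fold change was 0.20 ± 0.05 (SE; edgeR adjusted p = 0.000564). The call was lost without the libraries of replicate 2, where the log2 fold change was 0.17.

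Usp46 and Usp12, close relatives that share the activator Wdr48, had the same sign. Usp46 ranged from 8.58 to 28.1 CPM in the control, with a median of 17 CPM, and from 11.9 to 35.1 CPM with STM2457, with a median of 23.3 CPM. Its mean was higher with STM2457 at 7 of 8 chase times, and the averaged log2 fold change was 0.38 ± 0.08 (SE; edgeR adjusted p = 0.000114). Usp12 had a log2 fold change of 0.14 ± 0.07 with an edgeR adjusted p of 0.0927, and 2 of the 3 Wdr48-dependent proteases rose, where 13.9% of all genes did. For Usp12, 98.6% of the reads mapped to more than 1 place. Wdr48 itself had a log2 fold change of −0.02 and an edgeR adjusted p of 0.841.

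Usp42, which acts on histone H2B and p53, gave 10.1 to 26.3 CPM in the control (median 16.1 CPM) and 12.3 to 28.3 CPM with STM2457 (median 21.3 CPM). The STM2457 mean was higher at 7 of 8 chase times, and at 12 h the groups overlapped, with 22.8, 23.1, 26.3 and 24.9 CPM in the control against 23.8, 22.5, 26.5 and 19.98 CPM. Averaged over the chase, the log2 fold change was 0.33 ± 0.08 (SE; edgeR adjusted p = 0.000589).

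Usp54, a long family member that has been classed among those without catalytic activity, had the largest called increase of the family. Its level was 10.7 to 27.1 CPM in the control (median 16.7 CPM) and 13.8 to 31.7 CPM with STM2457 (median 22.1 CPM), and the mean was higher with STM2457 at all 8 chase times. At 12 h the control libraries held 12.5, 14.7, 11.97 and 10.7 CPM and the STM2457 libraries 18.4, 17.6, 19.2 and 17.3 CPM, so that the groups did not overlap. The averaged log2 fold change was 0.42 ± 0.07 (SE; edgeR adjusted p = 1.11e-06). Taken alone, the 12 h libraries gave 0.54 ± 0.20 with an edgeR adjusted p of 0.0766.

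Usp20, which acts on membrane and sterol-pathway proteins such as HMG-CoA reductase, was the only one of the 43 tested Usp genes called as lower in the average. Usp48, left out of these 43 for its response, had an averaged log2 fold change of −1.27 ± 0.06 (SE; edgeR adjusted p = 6.62e-27), given as a description. Levels were 6.24 to 35.7 CPM in the control (median 12.5 CPM) and 1.71 to 22.3 CPM with STM2457 (median 10.7 CPM), with the STM2457 mean lower at 7 of 8 chase times. The averaged log2 fold change was −0.37 ± 0.10 (SE; edgeR adjusted p = 0.00165). Without the libraries of replicate 3 or of replicate 4 it was −0.36 and −0.32 and no longer passed the threshold.

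**Figure D1:**
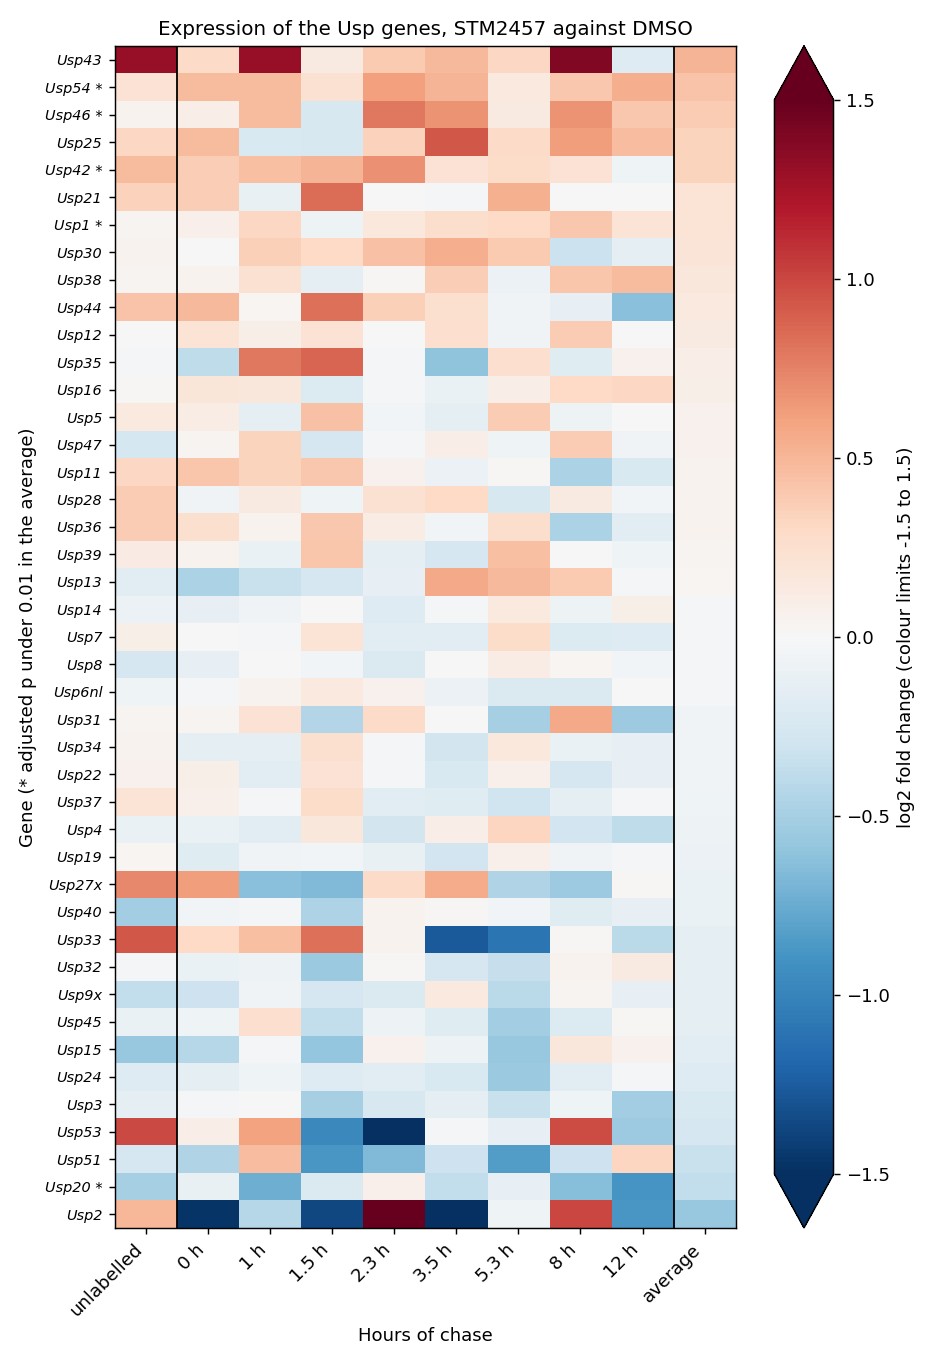
Heat map of the log2 fold change, STM2457 against DMSO, of the 43 tested Usp genes (rows, in order of the average) in the unlabelled libraries, at each of the 8 chase times and in the average (columns); an asterisk marks an edgeR adjusted p under 0.01 in the average. Usp54 is above 0 in every column, Usp20 is lowest at 12 h, and the widest swings between neighbouring times are in genes of few reads such as Usp2, Usp53 and Usp43.

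The 38 tested genes that were not called ranged from −0.57 ± 0.37 in Usp2 to 0.51 ± 0.33 in Usp43 (log2 fold change ± SE), both of which had few reads. Of these 38, Usp3, Usp9x, Usp24, Usp25 and Usp21 came nearest, with log2 fold changes of −0.23, −0.15, −0.20, 0.33 and 0.20 and edgeR adjusted p-values of 0.0167, 0.0225, 0.0366, 0.0388 and 0.0484. By role, the shares below stand beside 26.5% of all genes called. The paralogues Usp4, Usp11 and Usp15 had log2 fold changes of −0.08, 0.06 and −0.17, and none was called. Among the proteases of the proteasome, of free ubiquitin chains and of translation, 0 of 5 tested genes were called, with Usp9x at −0.15 ± 0.05 (SE; edgeR adjusted p = 0.0225). Of the 15 genes that act on chromatin and DNA repair, 2 were called (Usp1 and Usp42), and Usp7, which controls the stability of Mdm2 and p53, gave −0.03 ± 0.04 (SE; edgeR adjusted p = 0.613). Usp6nl had a log2 fold change of −0.03 ± 0.07 (SE; edgeR adjusted p = 0.739).

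Of the 5 X-linked Usp genes, Usp26 was below the filter, and Usp9x, Usp11, Usp27x and Usp51 had averaged log2 fold changes of −0.15, 0.06, −0.10 and −0.33 with edgeR adjusted p-values of 0.0225, 0.555, 0.708 and 0.109. None of these 4 was called, where 26.5% of all genes were, and so few genes tell little. In Usp9x 99.8% of the reads mapped to more than 1 place and in Usp27x 11.9% did.

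At single times fewer changes were detectable. At 0 h, after 6 h of inhibitor, edgeR called 0 of 43 Usp genes (1.68% of all genes), and 3 Usp genes and 16.1% of all genes had an unadjusted p under 0.05. At 12 h, edgeR called 0 of 43 (5.41% of all genes), and 6 Usp genes and 22% of all genes had an unadjusted p under 0.05. DESeq2 called 0 at 0 h (2.46% of all genes) and Usp20 at 12 h (6.83% of all genes). For the change of the effect from 0 to 12 h, edgeR called 0 of 43 (1.11% of all genes), with 3 Usp genes and 14.2% of all genes at an unadjusted p under 0.05. In the unlabelled libraries edgeR called 0 of 43 (2.58% of all genes), with 5 Usp genes and 20.2% of all genes at an unadjusted p under 0.05. DESeq2 called 0 Usp genes in both of these comparisons, and 1.64% and 3.7% of all genes. In simulated counts with known changes, the averaged comparison recovered 68% of the genes changed by 0.5 on the log2 scale, and the comparison at 0 h recovered 8% of them.

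The libraries at 1.5 h stood apart. There, 8.18% of all genes were called (4.16% higher and 4.02% lower), against 1.53% at 1 h, 1.61% at 2.3 h and 4.45% at 5.3 h, and 1 of 43 Usp genes, Usp21, was called. Usp21, a histone H2A deubiquitinase, had 84.3, 40.6, 68.4 and 37.8 CPM in the control and 93.9, 104, 107 and 110.0 CPM with STM2457, and every control library was below every STM2457 library. Its log2 fold change at 1.5 h was 0.84 ± 0.24 (SE; edgeR adjusted p = 0.00893) and 0.20 ± 0.08 in the average (edgeR adjusted p = 0.0484). The covered T positions per read are all covered T positions of a library divided by its counted reads. They were 18.9 to 19.3 in the control at 1.5 h and 19.7 to 19.8 with STM2457. Their part in the 1.5 h result of Usp21 was not tested.

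With this measure as a covariate in the edgeR fit, the 5 genes of the average were called together with Usp25 and Usp38, with 26.7% of all genes. Without the libraries of 1, 1.5 and 5.3 h, 7 Usp genes were called, against 19.5% of all genes, among them Usp4, Usp25 and Usp38 but no longer Usp42, at a log2 fold change of 0.29. Both settings were chosen after the libraries had been seen.

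Drift of levels over the chase was larger than the treatment effect for some Usp genes. Comparing 12 h with 0 h in the control with edgeR, 4 of 43 Usp genes were called (13% of all genes). Usp20, Usp11 and Usp4 were higher at 12 h (3 genes, where 4.84% of all genes were) and Usp1 was lower (1 gene, where 8.20% of all genes were). These comparisons use the same 0 h and 12 h libraries as the treatment comparisons.

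Usp20 had 6.24, 12.7, 8.56 and 12.2 CPM at 0 h and 31.6, 35.7, 32.99 and 35.04 CPM at 12 h in the control. With STM2457 it had 6.62, 9.81, 11.2 and 9.18 CPM at 0 h and 19.7, 22.3, 13.3 and 18.1 CPM at 12 h. The 12 h libraries were thus above all 0 h libraries in both treatments, and at 12 h all control libraries were above all STM2457 libraries. The log2 change over the chase was 1.77 ± 0.27 in the control (SE; edgeR adjusted p = 8.44e-07) and 1.00 ± 0.27 with STM2457 (SE; edgeR adjusted p = 0.0108). The difference between these changes was −0.77 ± 0.38 (SE; edgeR adjusted p = 0.348), which did not pass the threshold.

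Usp11, an X-linked deubiquitinase of DNA repair, had 20.3, 23.2, 32.1 and 24.7 CPM at 0 h and 49.8, 43.8, 46.5 and 50.96 CPM at 12 h in the control. No library of one time reached those of the other. The log2 change was 0.93 ± 0.19 (SE; edgeR adjusted p = 0.000205). With STM2457 it had 31.5, 23.7, 36.5 and 42.6 CPM at 0 h and 50.8, 39.3, 36.1 and 36.9 CPM at 12 h, which overlapped, and the log2 change was 0.28 ± 0.19 (SE; edgeR adjusted p = 0.413). The difference between the treatments was −0.65 ± 0.27 (SE; edgeR adjusted p = 0.236) and was not called.

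Usp4, the paralogue of Usp11, had 75.4, 62.9, 72.4 and 62.8 CPM at 0 h and 99.7, 86.9, 101 and 100.2 CPM at 12 h in the control. The times did not overlap, and the log2 change was 0.50 ± 0.13 (SE; edgeR adjusted p = 0.00391). Leaving out any 1 replicate number ended this call, with log2 changes of 0.42 to 0.54. With STM2457 the log2 change of Usp4 was 0.23 ± 0.13 (SE; edgeR adjusted p = 0.324).

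Usp1 moved in the other direction in both treatments. In the control it had 223, 181, 140.3 and 151 CPM at 0 h and 95.9, 104, 112 and 103 CPM at 12 h. With STM2457 it had 169.6, 211, 184 and 170.0 CPM at 0 h and 112, 122, 116 and 126 CPM at 12 h. All 12 h libraries lay below all 0 h libraries of their treatment. The level fell by 0.75 on the log2 scale in the control (SE 0.14, edgeR adjusted p = 2.45e-05) and by 0.63 with STM2457 (SE 0.14, edgeR adjusted p = 0.000959). It was the only Usp gene called over the chase with STM2457 (1 of 43, with 4.72% of all genes called, 1.69% higher and 3.03% lower), and this call was lost without replicate 2 and without replicate 3.

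**Figure D2:**
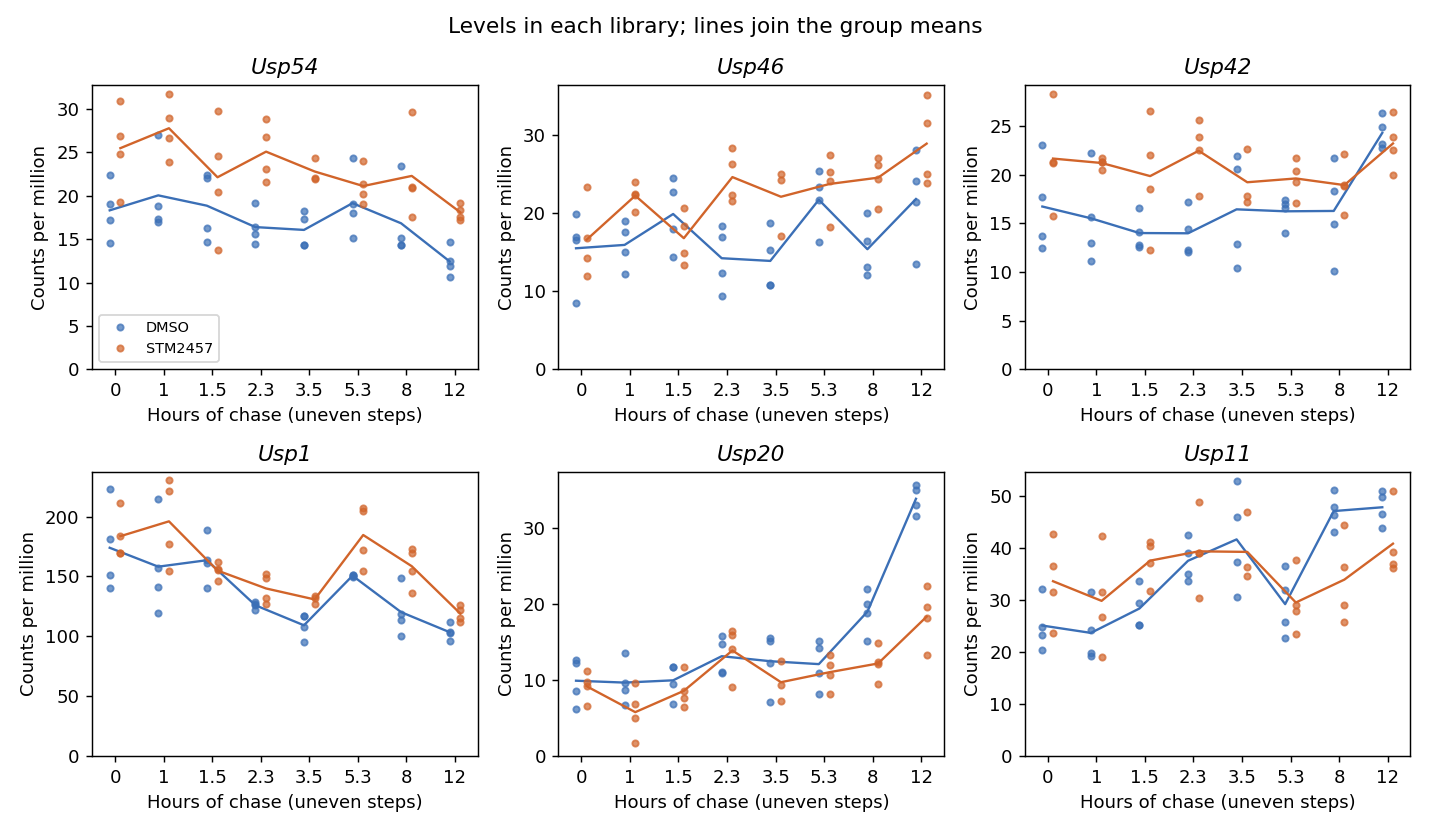
Level in CPM of Usp54, Usp46, Usp42, Usp1, Usp20 and Usp11 in every labelled library (points, DMSO blue and STM2457 orange) against hours of chase drawn at even steps, with lines joining the group means. Usp20 climbs to 31.6 to 35.7 CPM at 12 h in DMSO and to 13.3 to 22.3 CPM with STM2457, while the STM2457 mean of Usp54 lies above the control mean at each time.

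Loss of label was followed by the T-to-C conversion rate, which is the number of conversions divided by the covered T positions. Pooled over the Usp genes, it was 1.42% ± 0.0448 at 0 h in the control and 1.302% ± 0.0574 with STM2457 (mean ± SD, n = 4 libraries each), against 0.0849% ± 0.0103 and 0.100% ± 0.00768 in the unlabelled libraries. The rate fell slowly to 0.887% ± 0.0534 at 3.5 h in the control and 0.872% ± 0.0292 with STM2457, and then to 0.302% ± 0.0126 and 0.301% ± 0.0156 at 5.3 h. At 12 h it was 0.131% ± 0.0260 and 0.111% ± 0.0116. Over all transcripts the rate in the control went from 1.01% at 3.5 h to 0.534% at 5.3 h, so the step between these times was seen beyond the Usp genes.

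Incorporation at 0 h was compared in an edgeR fit of the conversions with the covered T positions as offset, at an adjusted p under 0.05. It called 0 of 38 Usp genes with enough conversions and 0 of 10102 genes (0.0%), while 1 Usp gene and 95 of all genes (0.94%) had an unadjusted p under 0.05. The Usp gene was Usp22, the deubiquitinase of the SAGA coactivator complex, with 1.78%, 1.41%, 1.45% and 1.45% in the control and 1.19%, 0.938%, 0.879% and 1.13% with STM2457, without overlap.

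A pair of genes carried conversions without label. Usp13, a paralogue of Usp5, had rates of 3.29%, 4.35%, 3.44% and 2.16% in the unlabelled control libraries and 3.07%, 3.06%, 3.52% and 3.28% in the unlabelled STM2457 libraries. Usp44, a deubiquitinase of histone H2B and of the mitotic checkpoint, had 2.48%, 3.12%, 1.77% and 2.60% in the unlabelled control libraries and 1.12%, 2.06%, 2.03% and 2.79% with STM2457. In the other 36 of these 38 genes the unlabelled mean did not exceed 0.290%. After 12 h of chase Usp13 was at 3.60%, 3.78%, 3.74% and 2.97% in the control, within its unlabelled range. The half-life of Usp13 below therefore rests on a rate that fell back to a high background, and Usp44 had no half-life within the limits.

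**Figure D3:**
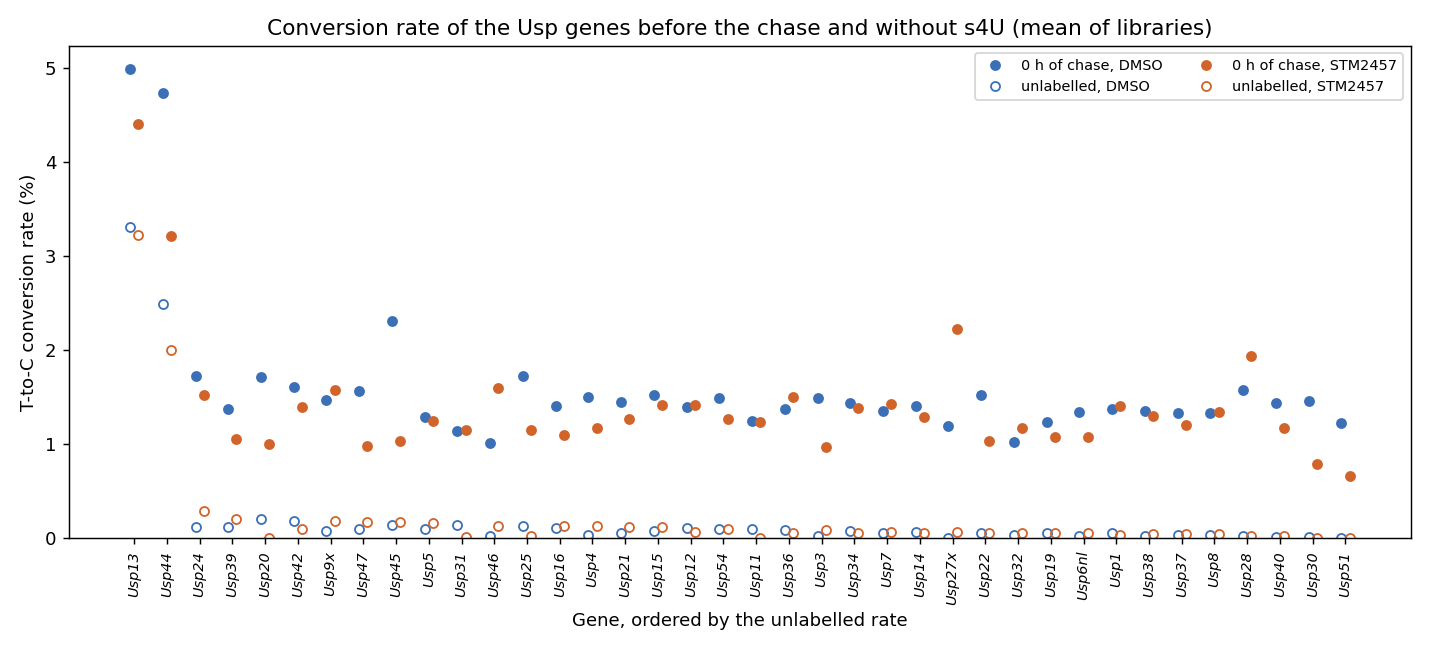
Mean T-to-C conversion rate in percent (vertical axis) of the 38 Usp genes with enough conversions to be tested, at 0 h of chase (filled) and without s4U (open), in DMSO (blue) and STM2457 (orange), ordered by the unlabelled rate. Usp13 and Usp44 stand alone with unlabelled means of 2.00% to 3.31%, whereas the others do not exceed 0.290%.

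Half-lives were fitted by an exponential decay of the background-subtracted rate relative to 0 h, on rates averaged over replicates. Estimates passed the limits on coverage (mean T coverage over 100), half-life (0.67 to 18 h) and residual standard error (at most 0.3) in both treatments for 32 of the 48 Usp genes and for 7363 transcripts in all. Of the other 16 genes, 7 lacked coverage (Usp9y, Usp18, Usp26, Usp29, Usp33, Usp50 and Usp53) and 9 were not fitted within the limits (Usp2, Usp25, Usp30, Usp35, Usp43, Usp44, Usp45, Usp47 and Usp51). The median half-life of the 32 Usp transcripts was 3.14 h in the control and 3.41 h with STM2457, beside 3.19 h and 3.45 h for all transcripts. Of the 32, 21 were longer and 11 shorter with STM2457 (65.6% longer, against 56.7% of all transcripts), and the median log2 ratio was 0.06, against 0.07 for all. The split was 15 longer to 13 shorter without replicate 2, 17 to 15 without 3.5 h, and turned to 13 longer and 16 shorter without replicate 4.

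The error of these values comes from replicate series, made of the labelled libraries of a treatment that share a replicate number. All series of a treatment had the same mean unlabelled rate subtracted, so the error of that background is not in their spread. Whether same-numbered libraries of different chase times belong together was not tested. Series 4 of STM2457 had no library at 3.5 h and was fitted on the remaining chase times. For the 26 Usp transcripts fitted within the limits in all 8 series, the series medians were 3.40, 3.26, 3.63 and 3.26 h in the control and 3.35, 3.23, 3.42 and 3.30 h with STM2457, and they overlapped. When limma was run on the 8 series, with half-lives on the log2 scale, 0 of 26 Usp transcripts and 0 of 5741 transcripts (0.0%) passed an adjusted p of 0.05, and 0 Usp transcripts and 405 of all (7.05%) had an unadjusted p under 0.05. In simulated series of the 5741 transcripts, limma recovered 25% of log2 differences of 1 in half-life and 72% of log2 differences of 2, so smaller differences were mostly not detectable.

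Control half-lives of the Usp transcripts spanned 1.01 to 6.24 h, a 6.15-fold range, and 29 of the 32 lay between 2 and 5 h. The shortest were those of Usp20 (1.01 h), Usp42 (1.69 h) and Usp36 (2.08 h). Usp36, a nucleolar deubiquitinase, had series of 2.04, 2.35, 2.14 and 1.84 h in the control and 2.26, 1.82, 2.64 and 2.20 h with STM2457. These were among the closest replicates of the family, and the treatments overlapped.

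Usp42 series were 2.64, 2.40, 1.19 and 1.08 h in the control and 1.70, 1.22, 2.53 and 1.89 h with STM2457, and its half-life with STM2457 was 1.69 h, as in the control. For Usp20 the control series were 0.555, 1.64, 1.33 and 0.891 h, of which the first was below the lower limit. The STM2457 series were 16.05, 4.41, 2.36 and 0.638 h and spanned the range of the method. This transcript had 10 to 207 reads per library, and at 5.3 h with STM2457 it had 0 conversions on 5242 covered T positions, which allows a rate of up to 0.0572% (3 counts, counting error only).

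The longest control half-lives were those of Usp5 (6.24 h), Usp9x (4.93 h) and Usp46 (4.56 h). For Usp46 the averaged rates included a control library at 0 h with no conversion, and the 3 control series that could be fitted, at 2.89, 5.76 and 1.43 h, do not settle its place in this order. Usp5, which takes apart free ubiquitin chains, had series of 4.25, 5.09, 10.6 and 7.38 h in the control and 6.38, 6.96, 3.78 and 5.45 h with STM2457. Usp9x had series of 3.84, 6.07, 5.46 and 4.89 h in the control and 7.70, 3.51, 3.62 and 3.25 h with STM2457, with reads that nearly all mapped to more than 1 place. Usp5 and Usp36 did not overlap in any control series, whereas the neighbours Usp5 and Usp9x did.

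The largest ratios of half-life, STM2457 to control, were those of Usp13 (log2 1.54), where the unlabelled background was high, of Usp20 (1.52) and of Usp54 (0.60). Usp13 had series of 5.3, 1.88, 1.50 and 4.17 h in the control and, in the 3 series that could be fitted, 2.32, 2.76 and 0.962 h with STM2457, below the value of 7.35 h from the averaged rates. Usp54 had series of 5.25, 2.03, 1.88 and 2.00 h in the control and 3.37, 2.49, 3.69 and 10.6 h with STM2457, which overlapped. The lowest log2 ratios were those of Usp28 (−0.998), Usp46 (−0.91) and Usp32 (−0.69, and −1.30 without replicate 4). Usp28, a deubiquitinase that stabilises Myc, had series of 6.17, 2.21, 4.44 and 5.09 h in the control and 1.97, 1.09, 4.32 and 2.17 h with STM2457. With STM2457, Usp46 had series of 2.23, 1.29, 3.59 and 2.00 h, within the range of its control series for all but 1.29 h. The level of Usp46 was higher with STM2457 in the average. Usp32 had series of 5.43, 4.88, 3.93 and 2.12 h in the control and 1.64, 2.20, 2.24 and 3.59 h with STM2457, which overlapped (limma unadjusted p = 0.0703, adjusted p = 0.722).

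Among the 26 Usp transcripts with all 8 series within the limits, Usp7, chosen here after its values had been seen, was the only one whose series did not overlap. It was 1 of 26 in the shorter direction, against 1.74% of 5741 transcripts, and 0 of 26 did not overlap in the longer direction, against 2.61%. They were 3.68, 3.63, 4.39 and 3.64 h in the control and 3.33, 3.18, 2.299 and 2.57 h with STM2457. The log2 ratio in limma was −0.44 ± 0.23 (SE) with an unadjusted p of 0.0788 and an adjusted p of 0.730. The difference thus did not pass the test over all transcripts. In the conversion-rate slope described below, Usp7 had −0.39 per h in the control and −0.38 per h with STM2457 on the log2 scale. This difference of 0.01 ± 0.02 (SE; edgeR unadjusted p = 0.590) was not called and had the opposite direction. By role, the 11 transcripts of chromatin and DNA repair had median half-lives of 2.61 h in the control and 3.04 h with STM2457, with a median log2 ratio of 0.06. The 5 of the proteasome, free chains and translation had a median log2 ratio of −0.06, and all transcripts had a median of 0.07. The 3 Wdr48-dependent transcripts had −0.51, the 4 of membrane traffic and organelles −0.03 and the 3 paralogues Usp4, Usp11 and Usp15 0.08. The 5 of signalling and other roles had 0.18, and the 2 with a divergent or inactive catalytic domain 0.50. These small groups were not tested as sets.

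**Figure D4:**
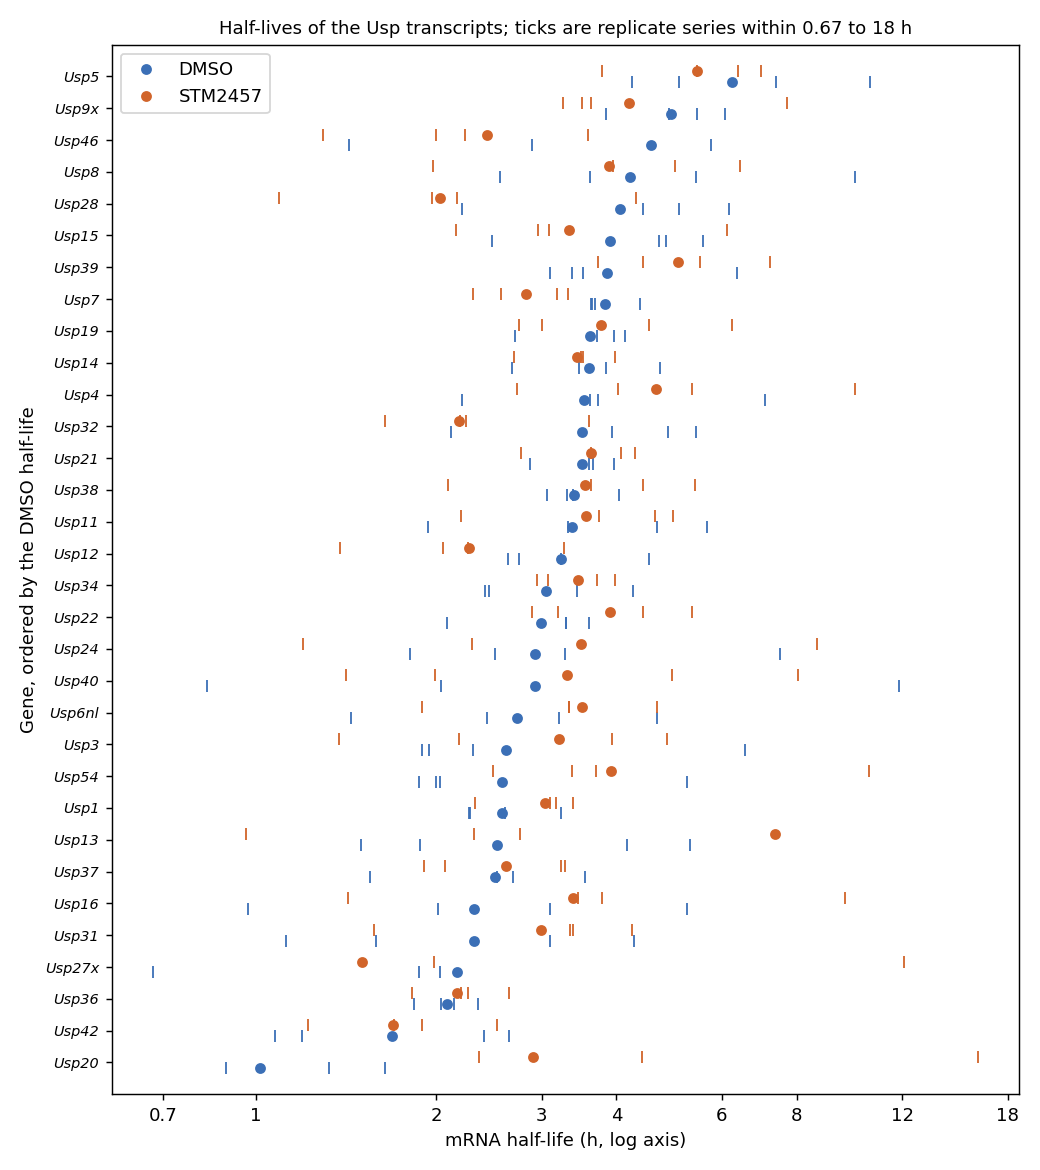
Half-life in hours (log axis) of the 32 Usp transcripts that passed the limits, ordered by the control value, from rates averaged over replicates (circles) and from single replicate series within 0.67 to 18 h (ticks), in DMSO (blue) and STM2457 (orange). Control values run from 1.01 h in Usp20 to 6.24 h in Usp5, and in Usp7 all series with STM2457 lie below all control series.

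The slope of the log conversion rate over the chase uses each library as a replicate. In edgeR at an adjusted p under 0.05, 2 of 38 Usp genes differed in slope between the treatments (5.26%), against 6.89% of all 10102 genes. In simulated conversions this test recovered 6.3% of slope differences of 0.05 per h on the log2 scale. It recovered 45.9% of differences of 0.15 per h, so a gene not called may still differ. Over all genes, 207 (2.05%) had a less steep and 489 (4.84%) a steeper slope with STM2457, and with the conversions scaled to those of all transcripts of a library the split was 329 to 231. Both scalings called the same 2 Usp genes.

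Usp32, a membrane-anchored deubiquitinase of the Golgi and endosomes, had a steeper slope with STM2457. Its rate was 1.03% ± 0.31 at 0 h, 0.762% ± 0.235 at 3.5 h and 0.229% ± 0.154 at 12 h in the control (mean ± SD, n = 4). With STM2457 it was 1.17% ± 0.28 at 0 h, 0.215% ± 0.186 at 3.5 h (n = 3) and 0.0495% ± 0.0575 at 12 h. At 3.5 h every control library was above every STM2457 library. The slope was −0.26 per h in the control and −0.53 per h with STM2457 on the log2 scale, a difference of −0.27 ± 0.08 (SE; edgeR adjusted p = 0.0134). Without replicate 3 the difference was −0.15 with an edgeR adjusted p of 0.346, and without 12 h it was −0.41 with an edgeR adjusted p of 0.0589.

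Usp16, a histone H2A deubiquitinase, differed in the other direction. Its rate went from 1.41% ± 0.60 at 0 h to 0.143% ± 0.106 at 5.3 h and 0.0492% ± 0.0729 at 12 h in the control (mean ± SD, n = 4). With STM2457 it went from 1.09% ± 0.25 to 0.373% ± 0.192 and 0.223% ± 0.151. The slopes were −0.43 and −0.22 per h, and their difference was 0.22 ± 0.07 (SE; edgeR adjusted p = 0.0498). The call lay at the threshold and was lost without replicate 2, without replicate 3 and without replicate 4, where the difference was 0.18 to 0.21, and also without 3.5 h (0.21) or 12 h (0.18) and with the replicate block (0.21, edgeR adjusted p = 0.0574). Without 12 h the called Usp genes were Usp8, Usp30 and Usp47, and neither Usp16 nor Usp32, with 4.53% of all genes called. In both genes the 12 h rates rested on few conversions, 31 and 8 in Usp32 and 4 and 29 in Usp16, control first. Without s4U, Usp16 had 0.397%, 0.0295%, 0% and 0% in the control and 0.0311%, 0%, 0.0921% and 0.379% with STM2457. Usp32 had 0%, 0%, 0% and 0.118% in the control and 0.120%, 0.0505%, 0.0403% and 0.0268% with STM2457. The mean 12 h rates lay within these unlabelled ranges, except that of Usp32 in the control. No background was subtracted for the slopes.

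**Figure D5:**
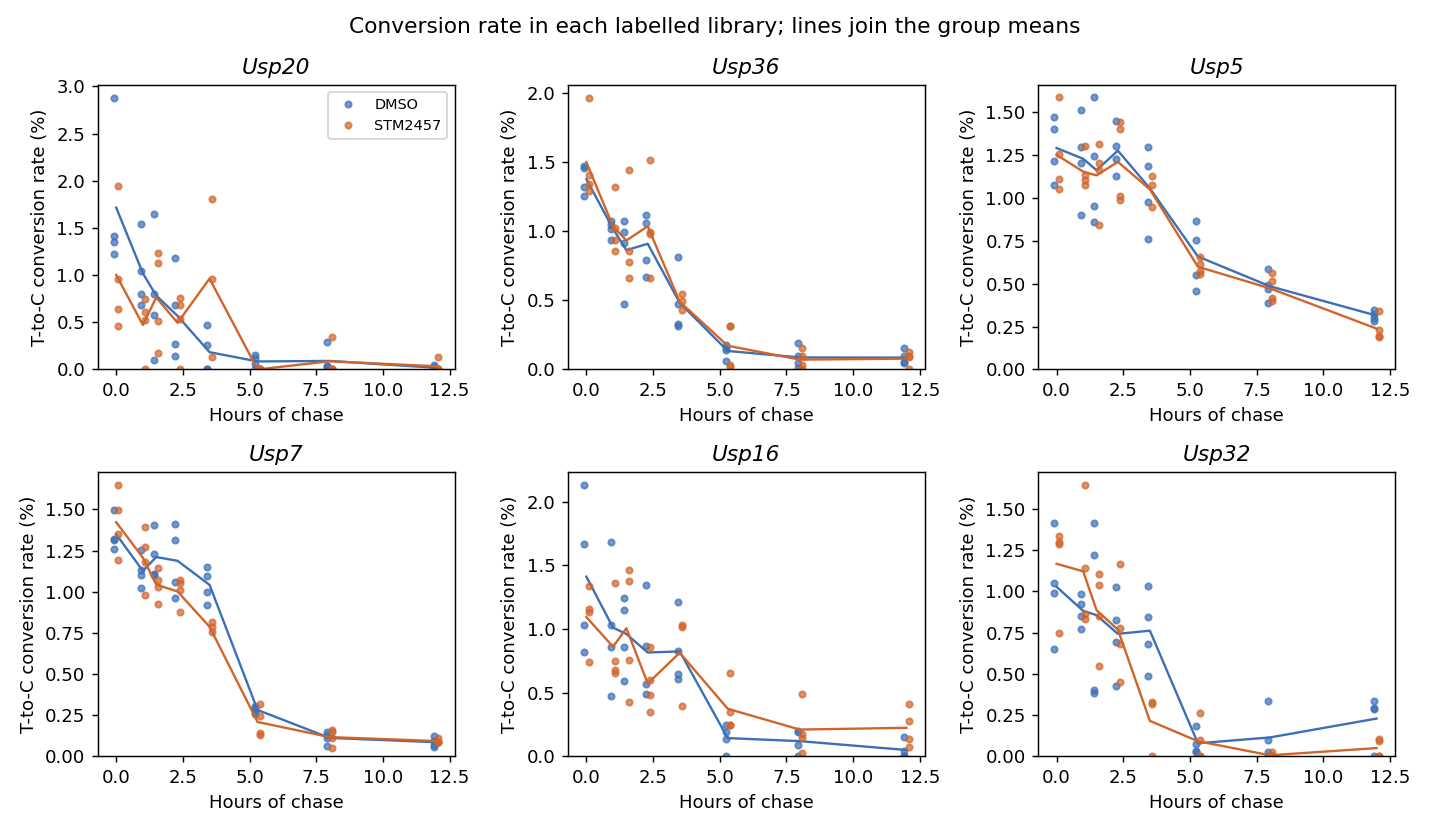
T-to-C conversion rate in percent of Usp20, Usp36, Usp5, Usp7, Usp16 and Usp32 in every labelled library (points, DMSO blue and STM2457 orange) against hours of chase, with lines joining the group means. Usp5 retains the most label at 12 h, and Usp32 is lower with STM2457 than in DMSO at 3.5 h.

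Transcripts of proteins that work with the Usp enzymes were tested as well, in the averaged comparison with edgeR. Of 21 tested cofactors and substrate partners, 4 rose and 3 fell (13.9% and 12.6% of all genes did), with a median log2 fold change of −0.04. Trim27, a partner of Usp7, rose with a log2 fold change of 0.67 ± 0.03 (SE; edgeR adjusted p = 2.41e-26), followed by Dmwd, a relative of Wdr20 (0.56), and Atxn7l2, a relative of the SAGA anchor of Usp22 (0.41). The genes that fell were Gmps (−0.56), which binds Usp7, Mdm2 (−0.34), its substrate, and Eny2 (−0.21), a subunit of the Usp22 module.

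Of 37 tested genes of other deubiquitinase families, among them some without protease activity of their own (such as Psmd7, Cops6 and Eif3h), 3 rose and 6 fell (13.9% and 12.6% of all genes did), with a median log2 fold change of −0.03. Psmd7, a subunit of the proteasome lid, rose by 0.46, Mindy1 by 0.39 and Josd1 by 0.26 on the log2 scale. Uchl3, Uchl5, which sits on the proteasome, and Cops5, the catalytic subunit of the COP9 signalosome, fell, with log2 fold changes of −0.37, −0.29 and −0.21. Of the 14 tested OTU enzymes 0 were called by edgeR, where 26.5% of all genes were.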

How the data were processed

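Per the study's methods, the authors prepared QuantSeq 3′ libraries and ran SLAM-DUNK 0.4.3 on 3′ UTR windows of an earlier SLAM-seq study. These windows had been filtered to match GENCODE M23 (GRCm38.p6). Reads could map to up to 100 positions, T-to-C variants of the merged unlabelled libraries were masked, and windows of a gene were collapsed. The submitters' processing notes also name FastQC 0.11.8. For each of the 71 libraries the authors deposited counts of reads, covered T positions and conversions. They also deposited the conversion rate as a fraction (conversions over covered T) and reads in CPM. The labels give chase times as T0 to T7, the study's methods give a 1.5-fold spacing, and the hours come from its drawing of the chase. CPM printed here were computed from the deposited counts with TMM library sizes.

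Counts were tested with edgeR 4.0.16 (quasi-likelihood, filterByExpr, TMM, all 18 groups of treatment and time in 1 fit) in R 4.3.3, with DESeq2 1.42.0 as an alternative. Conversions were fitted in edgeR with covered T as offset. Half-lives were fitted by a least-squares search written with numpy 2.4.6 and compared with limma 3.58.1. Adjusted p-values are Benjamini-Hochberg over all genes, with thresholds of 0.01 (expression) and 0.05 (conversions, half-lives). Libraries held 4539726 to 7368244 reads. The study's methods describe replicates as independent biological replicates. Among 105 pairs of replicates, 0 were identical. Each procedure was tested on simulated data.

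The members and gene lists were chosen with earlier results of these data known. Genes were named by rule: those called, the 3 longest and 3 shortest control half-lives, the 3 highest and 3 lowest ratios, the X- and Y-linked genes, Usp6nl, the genes below the filter, and up to 3 called partners and other deubiquitinases in each direction. Usp21, Usp22, Usp7, Usp12 and others outside it were named after their values were seen. Alternatives were another tool, no filter, no multimapping reads, the replicate block and each replicate number left out. The covariate and the fit without 1, 1.5 and 5.3 h were added after the data had been seen. Intervals and floors cover counting error only. Sequences came from GENCODE M21.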

Additional observations from a re-analysis of the deposited data

Results flagged for a closer look

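With Dixon's test, groups of 4 libraries were checked for 1 far from the other 3, in the summed reads and pooled conversion rate of the Usp genes, in the CPM of each Usp gene called in the average or over the chase at 0 h and 12 h, and in the median half-lives of the series. Of 64 groups, 1 held such a library, where chance gives about 1 in 20 groups. In the control at 12 h of chase, replicate 2 of Usp4 had 86.9 CPM, while the others lay between 99.7 and 101 CPM. Usp4 was still above all 0 h control libraries in this library.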

How the results depend on the processing

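The 5 calls of the average over the chase were made again by DESeq2, without the filter on low counts, without multimapping reads, with the replicate number as a block and with only the groups compared, and leaving out 1 replicate number gave 4 to 6 called Usp genes. At 12 h, where edgeR called 0 Usp genes, DESeq2 called 1, the fit of only the groups compared 1, and the fit with covered T positions per read as a covariate 2. For the chase in the control (4 called Usp genes), only the groups compared gave 7 and leaving out a replicate number gave 3. For the chase with STM2457 (1 called), DESeq2 gave 5, the covariate 3, only the groups compared 6, and leaving out a replicate number 0 to 2. The conversion slope (2 called) gave 1 with the replicate block, 1 without 3.5 h, 3 without 12 h (Usp8, Usp30 and Usp47, none of them called with all times), and 0 to 4 with a replicate number left out. The median log2 ratio of the half-lives (0.06) was 0.13 without the limit on the residual standard error and −0.011 to 0.12 with a replicate number left out. The cause of these differences was not tested.

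Counts over all genes fell with fewer libraries. Leaving out a replicate number gave 80 to 109 genes at 0 h (213 with all), 352 to 506 at 12 h (685), 40 to 83 for the change (140), 103 to 166 without s4U (326), 857 to 1207 for the chase in the control (1651) and 179 to 373 with STM2457 (598). Less steep against steeper slopes numbered 207 to 489, but 329 to 231 on the relative scale and 273 to 184 without 12 h. Same-numbered control and STM2457 libraries deviated together with correlations of −0.08 to 0.27, so the numbers were not taken to pair the libraries of the treatments. The block left 5 Usp genes in the average, gave 5 in the control chase and left 1 in the STM2457 chase. Of 171 values of single genes under alternatives, 151 counted as unchanged, 19 lost their call, 0 reversed and 1 moved, the half-life ratio of Usp32 (log2 −1.30 without replicate 4). For expression and slope, unchanged means the same direction and side of the threshold. Half-life ratios have no threshold and were judged against the spread of the replicate series of the gene, which was wide.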

Other observations

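Of the 7 tested subunits of the m6A writer complex, 4 rose in edgeR in the average over the chase, namely Wtap (log2 fold change 0.76), Rbm15 (0.57), Zc3h13 (0.46) and Cbll1 (0.28), and Mettl3 was at −0.05, where 13.9% of all genes rose and 12.6% fell. Of the 7 tested naive pluripotency markers, 4 rose and 1 fell against the same shares, with a median log2 fold change of 0.33.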
